A study of Homo sapiens with 15 samples.

Results

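H/ACA box small nucleolar RNAs (snoRNAs) were followed across 15 arrays of A549 cells, a human lung adenocarcinoma line. Members were all genes whose symbol in the array's probe table starts with SNORA and that had a probe set of their own, that is, one listed with a single gene symbol. The table listed 79 SNORA symbols. Of these, 61 had 64 probe sets of their own, out of 18377 genes with such a probe set, and the other 18 were listed only in probe sets shared with another gene. Where a gene had several probe sets the one with the highest mean was used, which concerned 2 members, SNORA10 and SNORA15. A member was taken as measured when its signal exceeded the array's own 25th percentile on at least 3 arrays. That left 54 of the 61, beside 16005 of all genes.

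The cultures formed 5 groups of 3 biological replicates. Cells were given 10 µM BB2-125, BB2-162 or BB2-282, or vehicle alone, and after 6 h oxygen was removed with gas-generating pouches, for 42 h, while a further vehicle group stayed in normoxia. All 15 cultures carried 0.1% DMSO. The 3 compounds are known by code names and are described in the series as inhibitors of transcription. Every treated culture was hypoxic, so a compound's effect on the hypoxic response cannot be told apart from a general effect. A549 is 1 cell line, and p-values measure the spread between these cultures only.

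H/ACA snoRNAs are short nuclear RNAs that fold into paired hairpins and guide the isomerisation of chosen uridines to pseudouridine, mostly in ribosomal RNA. Each is held in a particle with the pseudouridine synthase dyskerin (DKC1) and its partners NHP2, NOP10 and GAR1, and the RNA component of telomerase, TERC, carries an H/ACA domain bound by the same proteins. Most human H/ACA snoRNAs are cut out of introns of host genes, so that 1 transcript yields both a spliced host RNA and the snoRNA. The snoRNAs left over from the intron are stable, whereas the intron around them is degraded. The 5 members used here as markers are SNORA46 from CNOT1, SNORA65 from RPL12, SNORA75 from NCL, SNORA41 from EEF1B2 and SNORA80E, formerly SNORA42, from KHDC4. SNORA42 has been studied in lung cancer.

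The snoRNA sequences themselves are not printed here. The start regions of 3 host genes are shown, because these hosts were higher in hypoxia while their snoRNAs differed from each other (values below). They are from RefSeq on GRCh38.p14. Capitals mark ACGTG or GCGTG on either strand, the core of sites bound by hypoxia-inducible factor. For EPB41L4A-AS1, the non-coding host of SNORA13, the window is chr5:112160276-112160575 on the plus strand, 250 bases before to 50 after the start. For TOMM20, host of SNORA14B (chr1:235128838-235129087, minus strand), and KHDC4 (chr1:155934414-155934663, minus strand) only the 250 bases before the start are given.
EPB41L4A-AS1: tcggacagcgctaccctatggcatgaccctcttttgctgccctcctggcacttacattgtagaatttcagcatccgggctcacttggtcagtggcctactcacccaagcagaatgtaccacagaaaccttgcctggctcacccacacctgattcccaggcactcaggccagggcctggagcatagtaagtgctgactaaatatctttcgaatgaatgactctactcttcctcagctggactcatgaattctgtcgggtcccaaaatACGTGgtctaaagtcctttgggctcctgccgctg
TOMM20: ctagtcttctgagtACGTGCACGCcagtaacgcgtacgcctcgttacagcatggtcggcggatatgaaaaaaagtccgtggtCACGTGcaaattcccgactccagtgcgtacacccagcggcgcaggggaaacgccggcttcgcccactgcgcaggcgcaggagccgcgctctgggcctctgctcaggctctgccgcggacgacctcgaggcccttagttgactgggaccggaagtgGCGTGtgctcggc
KHDC4: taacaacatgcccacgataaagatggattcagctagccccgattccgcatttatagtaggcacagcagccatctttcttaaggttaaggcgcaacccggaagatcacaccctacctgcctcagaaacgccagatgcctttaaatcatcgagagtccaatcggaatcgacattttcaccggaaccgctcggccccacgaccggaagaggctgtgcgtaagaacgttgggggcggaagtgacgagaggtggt
The EPB41L4A-AS1 window held 1 match and the KHDC4 window 0. The TOMM20 window held 5 matches, of which 2 overlap where ACGTG is read on both strands. Of all 35116 windows of 300 bases in the table, 48.4% held a match, and of the windows of 42 host genes, 25 did (59.5%). A match describes these letters and is no evidence of binding.

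RNA was purified on RNeasy columns, which recover short RNAs poorly, and was labelled by random priming. The members are 123 to 236 bases long by RefSeq. A probe set for such a gene can also detect intron RNA of its host that has not been degraded, and those of related copies, such as SNORA71A and SNORA71C, can share signal; neither was tested. Array signal is given as log2 of the deposited RMA intensity, whose median per array ran from 74.91 to 84.6. The 8 epithelial markers of A549 were above the filter on all 15 arrays, with log2 signals of 4.93 to 13.3. Of 3 leukocyte markers on the array 2 were above it on all 15 arrays and 1 on none, of 4 fibroblast markers 2 on all and 2 on none, and of 3 endothelial markers 1 on all. VEGFA, which encodes the angiogenic factor, averaged 3.66 higher in hypoxic vehicle than in normoxic vehicle on the log2 scale, and SLC2A1, the glucose transporter gene, 2.13 higher.

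Of the 54 measured members, 47 were above the filter on all 15 arrays. SNORA15 passed on 3 arrays, those with BB2-282, where it read 5.45, 5.58 and 5.19 against percentiles of 4.75, 4.71 and 4.70. SNORA29 passed on 6, those with BB2-125 and BB2-162. Just outside the limit, SNORA19 exceeded the percentile on 1 array (5.29 on BB2-162 replicate 1) and SNORA69 on 1 array (4.93 on BB2-125 replicate 1). SNORA16B, SNORA2B, SNORA36C, SNORA70B and SNORA70F exceeded it on 0 arrays. Members that passed only through the group in which they were bright had to differ, so SNORA15 and SNORA29 are given below also with the dim group set at the level of the percentile.

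Within a group, single arrays were high or low across most members. BB2-125 replicate 1 was the highest of its 3 arrays for 50 of the 54 members (92.6%, against 32.1% of all genes tested), with a median deviation of 0.42 from the group mean. BB2-162 replicate 1 was the lowest of its group for 45 members (83.3%, against 40.0% of all genes), and replicate 2 the highest for 48 (88.9%, against 26.5%). BB2-282 replicate 3 was the lowest of its group for 43 (79.6%, against 34.5%). Hypoxic vehicle replicate 2 was the lowest of its group for 33 (61.1%, against 36.1%).

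Other short nuclear RNAs were read on the same arrays. The 84 C/D box snoRNA genes measured (symbols starting with SNORD), which guide ribose methylation, had median signals of 9.55, 8.58 and 8.94 with BB2-125, 8.77, 9.83 and 9.38 with BB2-162, 8.93, 9.0 and 8.44 with BB2-282, 8.99, 8.59 and 8.84 in hypoxic vehicle, and 7.45, 7.64 and 7.36 in normoxic vehicle (replicates 1 to 3). The median over the 54 SNORA genes was 8.75, 7.67 and 7.94 with BB2-125, 7.89, 8.58 and 8.08 with BB2-162, 9.89, 9.82 and 9.09 with BB2-282, 7.94, 7.62 and 7.91 in hypoxic vehicle, and 7.27, 7.02 and 7.16 in normoxic vehicle. The SNORA medians of the BB2-282 arrays all lay above those of the other 12 arrays, whereas the SNORD medians of BB2-282 replicates 1 and 2 lay among those of the other hypoxic arrays and that of replicate 3 was below them. The medians of 16 SCARNA genes were 9.88, 9.97 and 9.51 with BB2-282, against 9.39, 9.11 and 9.24 in hypoxic vehicle, and did not overlap. A median over levels can move further than the median of the changes per gene, which is given with each comparison. Recovery of short RNA was not measured, and its part in the results was not tested.

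**Figure D1:**
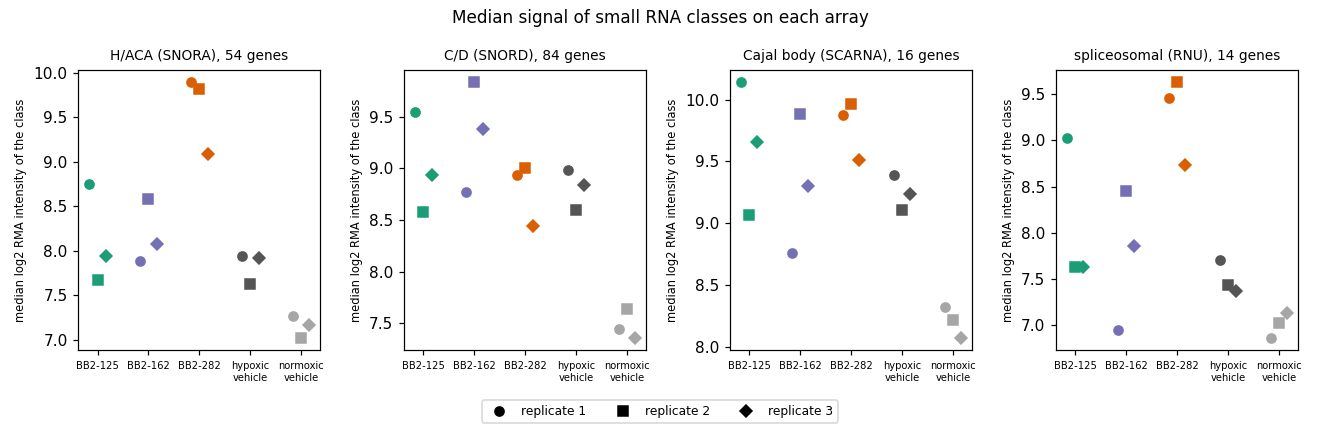
Median log2 RMA intensity of 4 classes of short RNA genes on each of the 15 arrays, in 4 panels with their own vertical axes, 1 point per array with the shape giving the replicate. The SNORA medians reach 9.09 to 9.89 on the BB2-282 arrays and 7.62 to 7.94 on the hypoxic vehicle arrays, while the SNORD medians of these groups overlap.

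The comparison of BB2-282 with hypoxic vehicle asks what the compound did to these RNAs under hypoxia. SNORA46, SNORA65, SNORA75, SNORA41 and SNORA80E were 8.05 to 16.2 times as bright with BB2-282, with no overlap between the groups. In RNA from whole cultures, more cells carrying an RNA and more of it per cell cannot be told apart. Of the 54 members 19 were higher and 1 lower at an adjusted p under 0.05 in limma's fit of all 15 arrays (called below). Calls in either direction were 13.6% of all genes tested. Higher calls were 35.2% of members against 5.65% of the 16005 genes tested, and the lower call was 1.85% against 7.94%. The median change was 0.47 on the log2 scale, against 0.02 over all genes tested, and it was 0.38 over the 61 members without the filter. By at least 2-fold, 17 were higher and 0 lower. No share at that limit was computed over all genes, so nothing is read from the 2-fold counts. Leaving out SNORA15 and SNORA29, whose vehicle arrays were dim, 18 of 52 were higher (34.6%) and 1 lower, 16 of them higher by at least 2-fold.

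SNORA46, a snoRNA of the CNOT1 introns, read 9.93, 9.85 and 9.03 with BB2-282, against 5.48, 5.56 and 5.72 in hypoxic vehicle (log2 signal, replicates 1 to 3). Its lowest BB2-282 array was far above every vehicle array, and the change was 4.02 ± 0.29 (standard error of limma's change, n = 3 each, adjusted p = 1.05e-07). SNORA65, known as U65 and encoded in the ribosomal protein gene RPL12, read 11.70, 11.67 and 10.92 with BB2-282, against 7.34, 7.29 and 7.88 in hypoxic vehicle. Again replicate 3 was the lowest of the treated arrays and no array overlapped, with a change of 3.93 ± 0.33 (adjusted p = 5e-07).

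SNORA75, known as U23, lies in NCL, the nucleolin gene. It read 9.75, 9.88 and 8.99 with BB2-282, against 5.94, 5.92 and 5.64 in hypoxic vehicle. The vehicle arrays lay close together and the change was 3.70 ± 0.25 (adjusted p = 4.21e-08). SNORA41, from the elongation factor gene EEF1B2, read 8.60, 8.78 and 8.04 with BB2-282, against 5.53, 5.38 and 4.75 in hypoxic vehicle, a change of 3.25 ± 0.23 (adjusted p = 7.73e-08). SNORA80E read 11.02, 11.19 and 10.38 with BB2-282, against 8.0, 7.61 and 7.95 in hypoxic vehicle. It changed by 3.01 ± 0.33 (adjusted p = 1.19e-05), and all 3 treated arrays were above all 3 vehicle arrays in both genes.

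**Figure D2:**
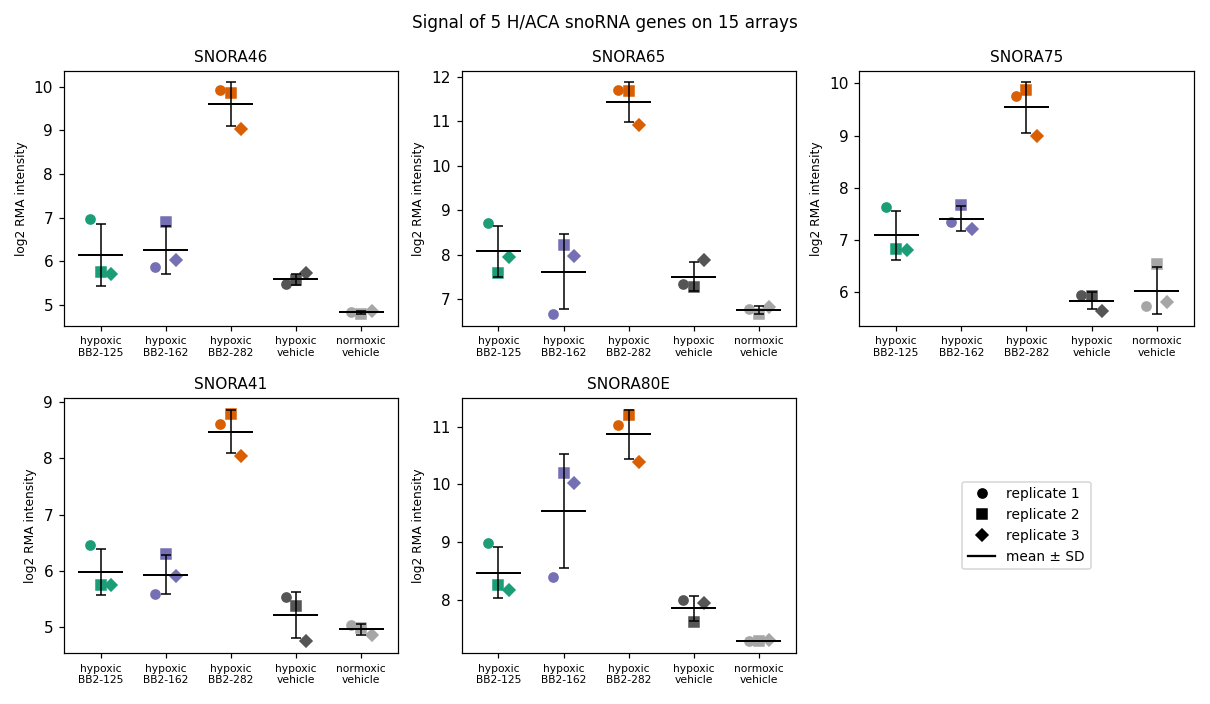
Log2 RMA intensity of SNORA46, SNORA65, SNORA75, SNORA41 and SNORA80E on the 15 arrays, in panels with their own vertical axes, with points for replicates and lines for the group mean ± SD (n = 3). In each panel the BB2-282 arrays are the highest group, and SNORA80E is also bright on BB2-162 replicates 2 and 3 (10.20 and 10.02).

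Next in size were SNORA6, SNORA3B and SNORA74A. SNORA6, 1 of a pair of snoRNAs in the gene of ribosomal protein RPSA, read 10.15, 10.43 and 9.15 with BB2-282, against 7.13, 7.19 and 7.43 in hypoxic vehicle (change 2.66 ± 0.37, adjusted p = 1.09e-04). SNORA3B, from RPL27A, read 9.94, 9.66 and 9.54 with BB2-282, against 7.57, 7.24 and 7.51 in hypoxic vehicle, a change of 2.27 ± 0.23. SNORA74A, known as U19 and lying in SNHG4, read 9.30, 9.81 and 8.80 with BB2-282, against 7.14, 7.24 and 6.73 in hypoxic vehicle, a change of 2.27 ± 0.30. No array of these genes overlapped between the groups. The other called members ran downward through SNORA60 (1.99), SNORA38 (1.75), SNORA27 (1.70), SNORA55 (1.60), SNORA13 (1.57), SNORA28 (1.56), SNORA52 (1.19), SNORA3A (1.10) and SNORA62 (0.98) to SNORA23 (0.70). SNORA15 was higher by 1.20, or by 0.70 counted from the filter level, since its vehicle arrays were dim. For SNORA60, a second probe set that it shares with its host SNHG11 averaged 7.423 with BB2-282 and 7.405 in hypoxic vehicle. What that probe set detects was not tested.

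SNORA5A, from TBRG4, was the member called lower. It read 8.60, 8.52 and 8.22 with BB2-282, against 9.16, 9.08 and 8.81 in hypoxic vehicle, and fell by 0.57 on the log2 scale (standard error 0.17, adjusted p = 0.0319). The call was lost with quantile normalisation (adjusted p = 0.0505) and when any of 4 arrays was left out (adjusted p = 0.0692 to 0.148). The other snoRNAs of that host gave changes of 0.10 ± 0.16 for SNORA5B and 0.27 ± 0.12 for SNORA5C, neither of them called.

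Beside these changes, 8 of 84 SNORD genes were called higher and 3 lower with BB2-282, with a median change of −0.11. For comparison, 5.65% of all genes tested were called higher and 7.94% lower. Of 16 small Cajal body RNA genes (SCARNA) 3 were higher and 1 lower, with a median of 0.06. Of 14 genes of spliceosomal RNAs (symbols starting with RNU) 6 were higher and 0 lower, with a median of 0.50. Higher calls above the share of all genes were thus not particular to the SNORA genes. Differences between the classes were not tested. The RNU medians were 9.46, 9.63 and 8.74 with BB2-282, against 7.70, 7.43 and 7.37 in hypoxic vehicle, so this class was likewise lowest on replicate 3. TERC, which is transcribed from a gene of its own, read 10.94, 10.86 and 10.89 with BB2-282, against 11.51, 11.38 and 11.33 in hypoxic vehicle, and fell by 0.51 on the log2 scale (standard error 0.12, adjusted p = 0.00775).

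**Figure D3:**
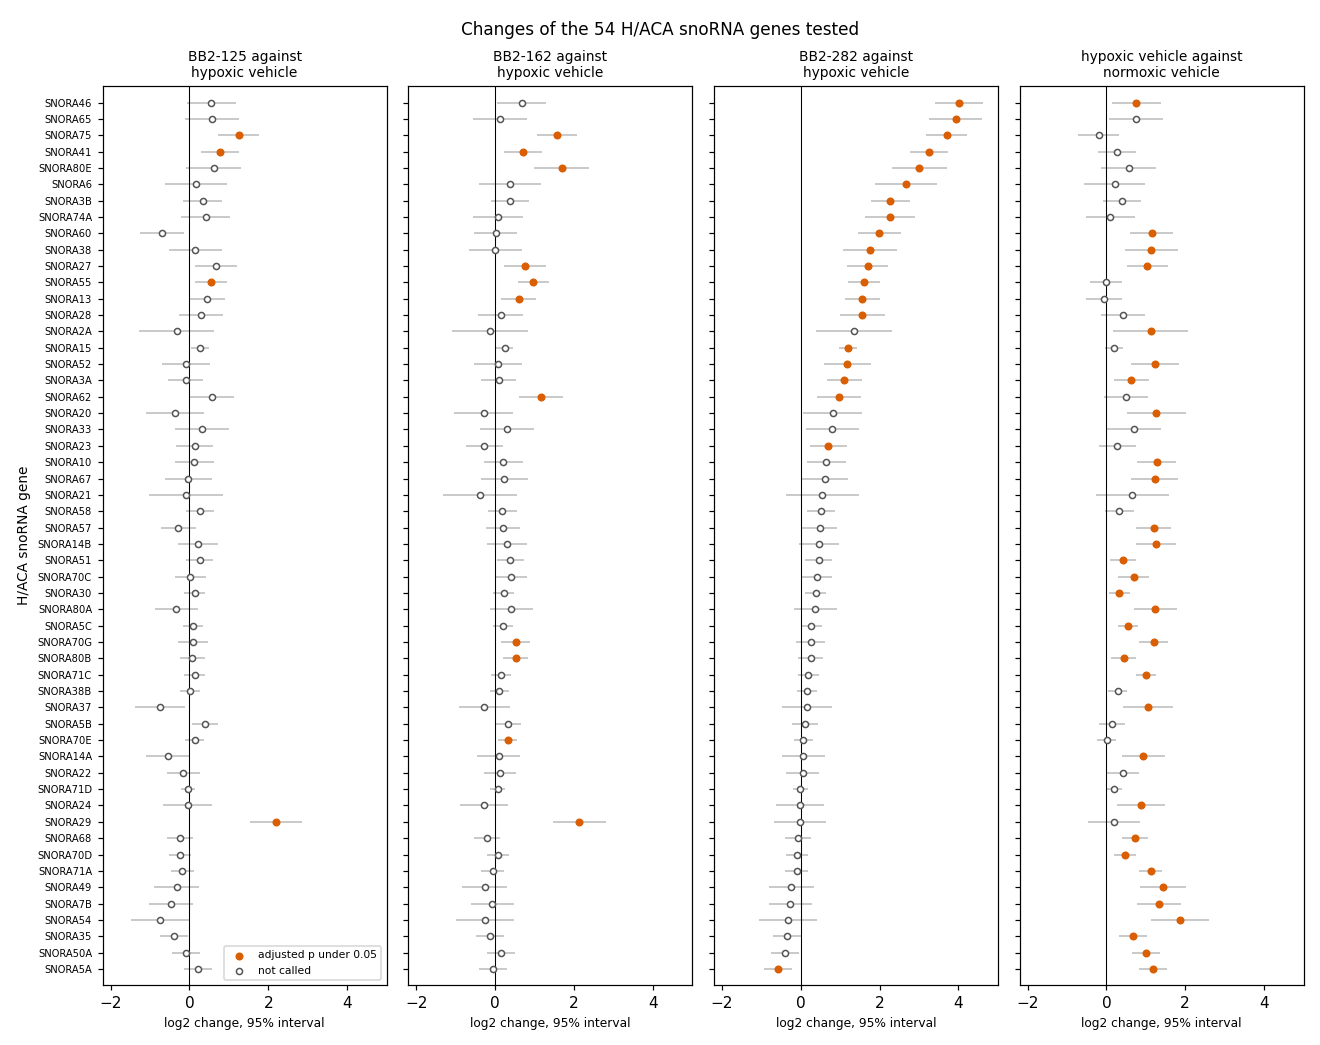
Change in log2 signal of each of the 54 measured SNORA genes in 4 comparisons, with 95% intervals from limma, filled points where called and genes ordered by their change with BB2-282. SNORA46 lies at 0.56 with BB2-125, 0.67 with BB2-162, 4.02 with BB2-282 and 0.76 in hypoxia, and SNORA29 at 2.20 with BB2-125 and 2.14 with BB2-162.

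With BB2-162, 11 of 54 members were higher and 0 lower than in hypoxic vehicle. Higher calls were 20.4% of members against 15.7% of all genes tested (36.1% in either direction). Without SNORA15 and SNORA29, which were dim in a group compared, 10 of 52 were higher (19.2%), and over all 54 the median change was 0.17 against 0.06. SNORA29, from the chaperonin gene TCP1, read 7.43, 5.63 and 6.28 with BB2-162, against 4.68, 3.89 and 4.36 in hypoxic vehicle. The change was 2.14 ± 0.31 (adjusted p = 4.31e-05), or 1.74 from the filter level, since the vehicle mean lay below it. Replicate 1, the array lowest in most members, was the highest of its group in this one.

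SNORA80E was also higher with BB2-162, at 8.41, 10.20 and 10.02 against 8.0, 7.61 and 7.95 in hypoxic vehicle (change 1.69 ± 0.33, adjusted p = 7.4e-04). Its first array was close to the vehicle and the others were far above it. SNORA75 read 7.35, 7.66 and 7.20 with BB2-162, against 5.94, 5.92 and 5.64 in hypoxic vehicle, a change of 1.57 ± 0.25 (adjusted p = 8.44e-05). SNORA62, known as E2 and the other snoRNA of RPSA, read 8.95, 10.30 and 10.10 with BB2-162, against 8.77, 8.37 and 8.71 in hypoxic vehicle, a change of 1.16 ± 0.27 (adjusted p = 0.00257). SNORA55 changed by 0.97 ± 0.19, SNORA27 by 0.76 ± 0.25, SNORA41 by 0.72 ± 0.23 and SNORA13 by 0.60 ± 0.22, and all were called. Of these, SNORA27, SNORA41 and SNORA13 each lost the call with quantile normalisation (adjusted p = 0.0545, 0.0563 and 0.0646) and when any of 3 arrays was left out. SNORA27 and SNORA13 also lost it with median centring (0.0526 and 0.0741). The remaining calls were SNORA70G (0.52), SNORA80B (0.52) and SNORA70E (0.32). SNORA46 gave 0.67 ± 0.29 (adjusted p = 0.0801) and SNORA65 0.12 ± 0.33 (adjusted p = 0.786). Without BB2-162 replicate 1 SNORA46 was called in limma's fit (0.87, adjusted p = 0.033).

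The count with BB2-162 rested on single arrays. Without BB2-162 replicate 1 it was 19, without replicate 3 it was 6, and without hypoxic vehicle replicate 2 it was 6. Without replicate 2 of BB2-162 it was 8, of which 6 were higher and 2 lower. Centring each array on its median, or quantile normalisation, gave 7.

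With BB2-125, 4 of 54 members were higher and 0 lower than in hypoxic vehicle, which is 7.41% of members against 13.3% of all genes tested (28.4% in either direction). Without SNORA15 and SNORA29 it was 3 of 52 (5.8%). Both shares were below that of all genes, and over all 54 the median change was 0.11 against 0.02. SNORA29 read 6.10, 6.78 and 6.63 with BB2-125, against 4.68, 3.89 and 4.36 in hypoxic vehicle (change 2.20 ± 0.31, adjusted p = 3.18e-05, or 1.80 from the filter level). SNORA75 read 7.63, 6.82 and 6.81 with BB2-125, against 5.94, 5.92 and 5.64 in hypoxic vehicle, a change of 1.25 ± 0.25 (adjusted p = 7.17e-04). No array of either gene overlapped.

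SNORA41 changed by 0.76 ± 0.23 with BB2-125 (adjusted p = 0.0166) and SNORA55 by 0.55 ± 0.19 (adjusted p = 0.038). In a fit with the replicate number as a block SNORA55 was not called (adjusted p = 0.052), while SNORA27 was called higher (0.67, adjusted p = 0.0319) and SNORA35 lower (−0.39, adjusted p = 0.05 as rounded), so that 4 were higher and 1 lower. Without BB2-125 replicate 1, the array highest in most members, SNORA41 was at 0.53 and SNORA55 at 0.48, neither of them called. SNORA41 also lost its call without hypoxic vehicle replicate 3 (adjusted p = 0.107), and SNORA55 without hypoxic vehicle replicate 1 (0.133) or 2 (0.127) or BB2-125 replicate 2 (0.0878). With BB2-125 replicate 1 left out, the count of called members was 6, of which 2 were higher and 4 lower. Without BB2-125 replicate 3 it was 7. SNORA46, SNORA65 and SNORA80E gave 0.56 ± 0.29, 0.57 ± 0.33 and 0.62 ± 0.33, with adjusted p of 0.186, 0.222 and 0.192. In limma's fit of the 2 groups alone SNORA80E was called (adjusted p = 0.0381).

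Differences between compounds were tested directly, on contrasts without vehicle arrays, over 3 pairs. BB2-125 against BB2-282 gave 2 members higher and 22 lower, that is 3.70% and 40.7% of members against 18.7% and 17.6% of all genes tested (36.3% in either direction). Without SNORA15 and SNORA29 it gave 1 higher and 21 lower of 52. BB2-162 against BB2-282 gave 3 higher and 20 lower, 5.56% and 37.0% against 15.6% and 20.3% (35.8% in either direction), and without those members 2 higher and 19 lower of 52. SNORA46 was lower by the most with BB2-125, at 6.97, 5.75 and 5.71 against 9.93, 9.85 and 9.03 with BB2-282 (change −3.46 ± 0.29, adjusted p = 4.73e-08). SNORA65 was lower by the most with BB2-162, at 6.66, 8.22 and 7.98 against 11.70, 11.67 and 10.92 with BB2-282 (change −3.81 ± 0.33, adjusted p = 6.54e-08). The 5 marker genes were called lower in both contrasts, but they are the 5 members with the largest changes with BB2-282 and both contrasts use its arrays, so nothing is read from this.

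SNORA60, from the non-coding host SNHG11, read 9.24, 8.38 and 8.49 with BB2-125, 8.63, 10.00 and 9.58 with BB2-162 and 11.33, 11.39 and 11.45 with BB2-282. Its change from BB2-282 was −2.68 ± 0.26 with BB2-125 and −1.98 ± 0.26 with BB2-162. SNORA80E was lower than with BB2-282 under both compounds, with changes of −2.39 ± 0.33 with BB2-125 (adjusted p = 1.38e-05) and −1.32 ± 0.33 with BB2-162 (adjusted p = 0.00446).

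A few members went the other way. SNORA29 read 6.10, 6.78 and 6.63 with BB2-125 and 7.43, 5.63 and 6.28 with BB2-162, against 4.09, 4.68 and 4.07 with BB2-282. The changes were 2.22 ± 0.31 and 2.17 ± 0.31, or 1.78 and 1.73 from the filter level. SNORA5A was higher with BB2-125 (0.79 ± 0.17) and with BB2-162 (0.50 ± 0.17), and SNORA50A with BB2-162 (0.55 ± 0.17). The last pair of calls was lost when BB2-162 replicate 2 was left out (changes of 0.33 and 0.35).

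BB2-125 and BB2-162 differed in 3 members, all lower with BB2-125, or 5.56% against 9.43% of all genes tested (26.1% in either direction). They were SNORA80E (−1.07 ± 0.33, adjusted p = 0.0244), SNORA80A (−0.75 ± 0.26, adjusted p = 0.0407) and SNORA80B (−0.44 ± 0.15, adjusted p = 0.0381). The arrays of SNORA80E and SNORA80A overlapped between the groups. In a fit of the 2 groups alone SNORA80B and SNORA80E lost their calls (adjusted p = 0.0904 and 0.0841). SNORA80B also lost it when any array but BB2-162 replicate 1 was left out (0.0757 to 0.209). SNORA80E lost it without replicate 2 or 3 of either group (0.0759 to 0.132). Without BB2-162 replicate 2 the only call was 1 member higher. The count ran from 0 to 19 when single arrays were left out, with 19 without BB2-162 replicate 1 and 7 without BB2-125 replicate 1. For SNORA46 the interval of the difference ran from −0.74 to 0.50, and for SNORA65 from −0.23 to 1.14, so neither a difference nor its absence was shown.

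Hypoxia was set against normoxia in the vehicle groups to ask what low oxygen did without a compound. Of the 54 members 32 were higher and 0 lower, so that higher calls were 59.3% of members against 28.2% of all genes tested, and lower calls 0% against 29.4%. In either direction 57.5% of all genes were called. Without 4 members that were dim in a group compared, 31 of 50 were higher (62.0%). The median change was 0.68 against 0.09 over all genes, and 51 of 54 changes were positive. By at least 2-fold 19 were higher, again with no share over all genes computed. In the same comparison 79 of 84 SNORD genes were called higher, with a median change of 1.13, and 13 of 16 SCARNA genes, with a median of 1.37. Of 14 RNU genes 5 were called higher, with a median of 0.39, a share not far from that of all genes. C/D box and small Cajal body RNAs were thus higher too, and the recovery of short RNA was not measured in either group.

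SNORA54, from the histone chaperone gene NAP1L4, had the largest change. It read 9.92, 9.28 and 9.92 in hypoxic vehicle, against 7.88, 7.89 and 7.75 in normoxic vehicle (1.87 ± 0.35, adjusted p = 1.6e-04). SNORA49, from EP400, read 11.34, 11.17 and 11.32 in hypoxic vehicle, against 10.06, 9.6 and 9.88 in normoxic vehicle, a change of 1.43 ± 0.27. In both genes every hypoxic array was above every normoxic one. SNORA7B changed by 1.33 ± 0.26, SNORA10 by 1.28 ± 0.23, SNORA20 by 1.27 ± 0.35, SNORA14B by 1.26 ± 0.24, SNORA80A by 1.24 ± 0.26 and SNORA52 by 1.23 ± 0.29, each without overlap between the groups.

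The 5 markers were also read in hypoxia. SNORA46 read 5.48, 5.56 and 5.72 in hypoxic vehicle, against 4.84, 4.78 and 4.86 in normoxic vehicle (0.76 ± 0.29, adjusted p = 0.0352), a call that was lost when any 1 array of either group was left out (adjusted p = 0.0538 to 0.0967), and also with median centring (0.0507) or quantile normalisation (0.0813). SNORA65 gave 0.74 ± 0.33 (adjusted p = 0.0587), SNORA80E 0.56 ± 0.33 (0.153), SNORA41 0.26 ± 0.23 (0.342) and SNORA75 −0.19 ± 0.25 (0.516). The groups did not overlap for SNORA65 and SNORA80E. Both were called in limma's fit of the 2 groups alone (adjusted p = 6.03e-04 and 0.00104). With BB2-282, SNORA54 gave −0.33 ± 0.35, SNORA49 −0.24 ± 0.27 and SNORA7B −0.26 ± 0.26, none of them called. Both comparisons use the hypoxic vehicle arrays, so their values stand here side by side only.

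TERC read 11.51, 11.38 and 11.33 in hypoxic vehicle, against 10.47, 9.94 and 10.14 in normoxic vehicle, a change of 1.22 ± 0.12 (adjusted p = 6.03e-08). Its groups did not overlap. With BB2-125 its change from hypoxic vehicle was −0.00 ± 0.12 and with BB2-162 −0.20 ± 0.12 (adjusted p = 0.195).

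Host genes were named for all 61 members, 53 different genes, and 33 of them were measured and could be set beside 39 of the measured members. With BB2-282 the hosts changed by −0.69 to 0.50, with a median of −0.09, while the 39 snoRNA genes had a median change of 0.47. Calls were 13.6% of all genes tested, 5.65% higher and 7.94% lower, so most genes of any kind were uncalled. In 1 pair, SNORA38 and PRRC2A, both genes were called higher. In 9 pairs the snoRNA gene was called higher with the host uncalled, and in 4 the host was called lower, namely SNORA23 with IPO7, SNORA3A and SNORA3B with RPL27A, and SNORA13 with EPB41L4A-AS1. The within-array difference between snoRNA gene and host did not overlap between the groups in 30 pairs, higher with BB2-282 in 27 and lower in 3. In hypoxia the count was 31 pairs, 27 higher and 4 lower in hypoxic vehicle, and no such share was computed for other pairs of genes. Across the 39 pairs, which share arrays and in part hosts, Pearson's r of the changes was 0.12 and Spearman's rho 0.07.

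The hosts of the 5 markers were not called with BB2-282. Only 13.6% of all genes tested were, so nothing is read from this count. CNOT1, the scaffold of the CCR4-NOT deadenylase, read 10.34, 10.42 and 10.57 with BB2-282, against 10.35, 10.69 and 10.29 in hypoxic vehicle (change 0.00 ± 0.17). RPL12 gave −0.13 ± 0.09, NCL 0.13 ± 0.12, EEF1B2 0.04 ± 0.16 and KHDC4 −0.30 ± 0.14 (adjusted p of 0.417, 0.57, 0.925 and 0.17). The difference between SNORA65 and RPL12 within an array was 4.06 higher with BB2-282, and that between SNORA46 and CNOT1 4.01 higher.

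**Figure D4:**
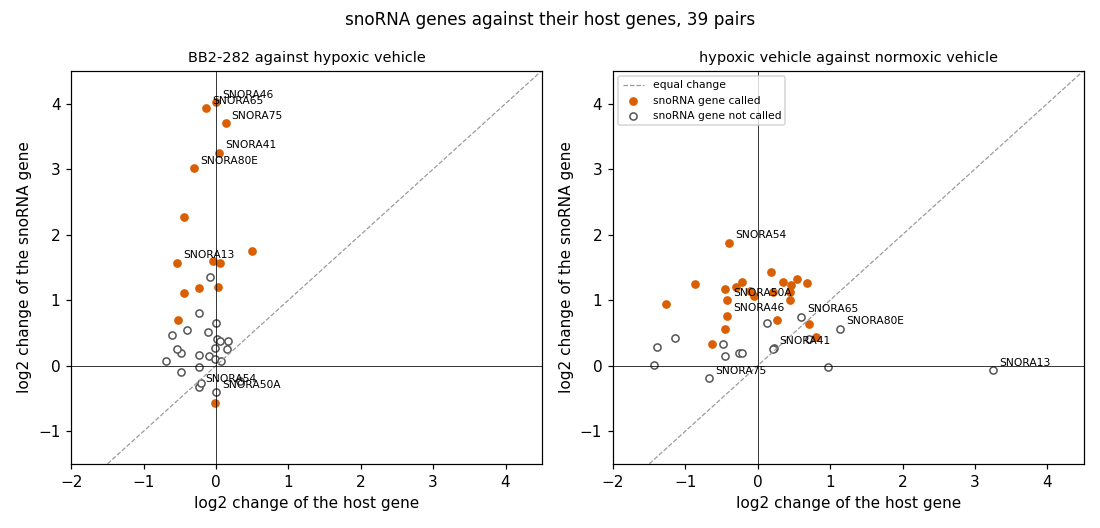
Change in log2 signal of 39 SNORA genes (vertical) against that of their host genes (horizontal), for BB2-282 against hypoxic vehicle and for hypoxic against normoxic vehicle, with the dashed line at equal change and filled points for called SNORA genes. With BB2-282 the points spread vertically, from −0.57 to 4.02, over hosts between −0.69 and 0.50; in hypoxia the host of SNORA13 lies far to the right at 3.26.

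In hypoxia the host changes ran wider, from −1.43 to 3.26. Both genes were called higher in 9 pairs, the snoRNA gene was higher with the host uncalled in 5 and with the host lower in 9, and r was −0.05 (rho 0.11). Of all genes tested, 28.2% were called higher in hypoxia and 29.4% lower. EPB41L4A-AS1 read 11.25, 11.07 and 11.26 in hypoxic vehicle, against 8.19, 7.89 and 7.74 in normoxic vehicle (3.26 ± 0.12, adjusted p = 1.13e-13). Its snoRNA SNORA13 read 6.13, 5.61 and 6.00 in hypoxic vehicle, against 5.86, 6.13 and 5.95 in normoxic vehicle (−0.07 ± 0.22, adjusted p = 0.796). The host groups stood far apart and those of the snoRNA gene overlapped. With BB2-282 the pair moved in opposite directions, SNORA13 by 1.57 ± 0.22 and EPB41L4A-AS1 by −0.54 ± 0.12 (adjusted p = 0.00555).

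KHDC4, host of SNORA80E, read 8.76, 8.90 and 8.63 in hypoxic vehicle, against 7.61, 7.68 and 7.59 in normoxic vehicle (1.14 ± 0.14, adjusted p = 9.42e-07). It was higher still with BB2-125 (0.48 ± 0.14, adjusted p = 0.013) and BB2-162 (0.61 ± 0.14, adjusted p = 0.00207) than in hypoxic vehicle, whereas SNORA80E was called with BB2-162 and not with BB2-125. TOMM20, a subunit of the mitochondrial import complex, rose by 0.69 ± 0.13 in hypoxia (adjusted p = 1.85e-04) beside SNORA14B at 1.26, and fell by 0.60 with BB2-282 (standard error 0.13, adjusted p = 0.00432) beside SNORA14B at 0.47 ± 0.24, which was not called. With BB2-125 both genes were called higher in 1 pair, SNORA75 and NCL, and r was 0.28 (rho 0.28). With BB2-162 both were called higher in 4 pairs and the host lower in 2, and r was 0.27 (rho 0.14). Higher calls were 13.3% of all genes tested with BB2-125 and 15.7% with BB2-162. Lower calls were 15% and 20.4%.

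Members of 1 host are given side by side. SNORA50A lies in CNOT1 as SNORA46 does. It read 10.84, 10.74 and 10.85 with BB2-282, against 11.29, 11.28 and 11.09 in hypoxic vehicle (−0.41 ± 0.17, adjusted p = 0.133), and 10.20, 10.32 and 10.14 in normoxic vehicle. It was called in hypoxia (1.0 ± 0.17, adjusted p = 5.6e-05) and not with BB2-282, and the difference between its changes and those of SNORA46 was not tested. In TCP1, SNORA20 read 11.38, 11.21 and 11.05 with BB2-282, against 10.39, 10.40 and 10.43 in hypoxic vehicle (0.81 ± 0.35, adjusted p = 0.159). SNORA29 read 4.09, 4.68 and 4.07 with BB2-282, against 4.68, 3.89 and 4.36 in hypoxic vehicle (−0.03 ± 0.31). With BB2-125 and BB2-162 SNORA20 gave −0.37 ± 0.35 and −0.29 ± 0.35, and TCP1 gave 0.05 and −0.02. SNORA29 was called higher with both compounds, but it passed the filter only on their arrays and so had to differ. Nothing is read from its call beside SNORA20.

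**Figure D5:**
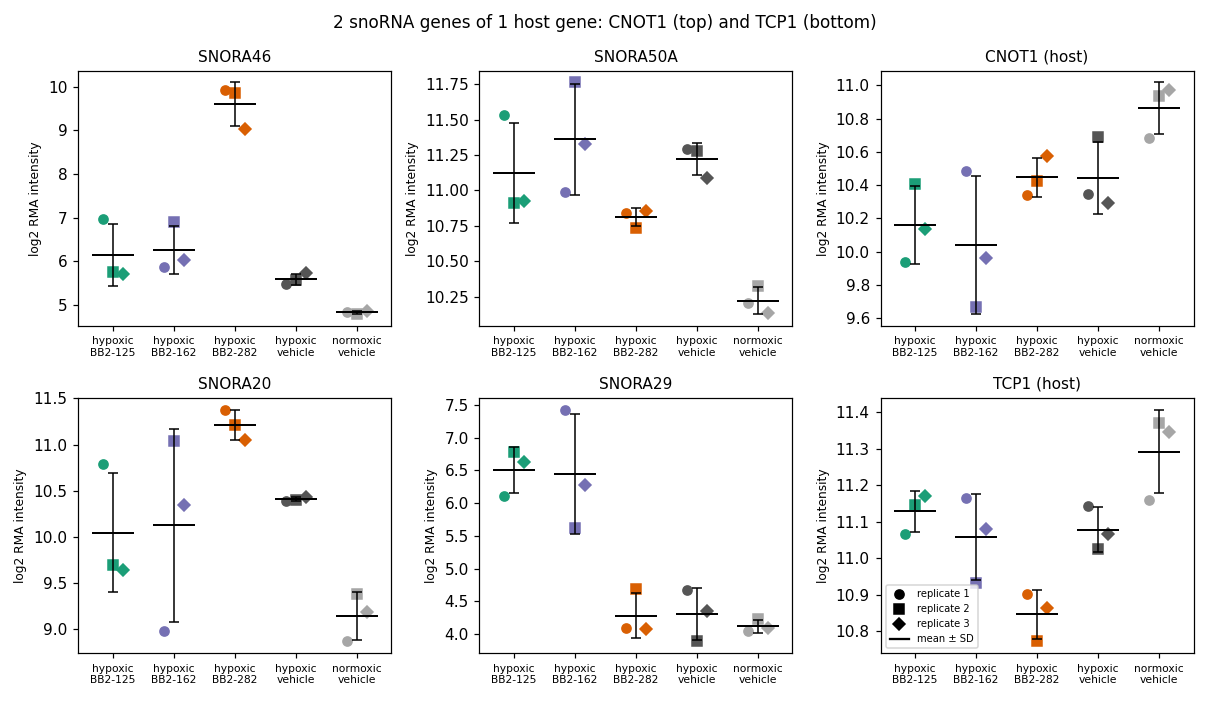
Log2 RMA intensity on the 15 arrays of SNORA46, SNORA50A and their host CNOT1 (top) and of SNORA20, SNORA29 and their host TCP1 (bottom), with points for replicates and lines for the group mean ± SD (n = 3); each panel has its own vertical axis. SNORA46 is highest with BB2-282 and SNORA29 with BB2-125 and BB2-162, while SNORA50A reads 10.74 to 10.85 with BB2-282 and 11.09 to 11.29 in hypoxic vehicle.

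By kind of host, 9 of 14 measured members in ribosomal protein or translation factor genes were called higher with BB2-282, with a median change of 1.14. Of 31 in other protein-coding genes 7 were higher and 1 lower, with a median of 0.37, and of 9 in non-coding hosts 3 were higher, with a median of 0.05. Of all genes tested, 5.65% were called higher with BB2-282 and 7.94% lower. In hypoxia the medians were 0.68 for translation hosts, 0.67 for other coding hosts and 0.87 for non-coding hosts. SNORA71D was counted with the other protein-coding hosts, under LOC124904958, although the non-coding SNHG17, host of SNORA71A and SNORA71C, spans it too. The difference between kinds of host was not tested.

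The proteins that build and trim H/ACA particles were followed as a list of 14 genes, all of them measured. With BB2-282, 0 of the 14 were called by limma, against 13.6% of all genes tested, with a median change of −0.17. On a list this short nothing is read from the 0. At an unadjusted p under 0.05 there were 5, of which 4 were lower, while fitting only the arrays of these 2 groups called 3, and filtering at the 50th percentile called 2. DKC1 gave 0.25 ± 0.11 (adjusted p = 0.154). With BB2-162, 3 were higher (NOP10, GAR1 and the assembly factor SHQ1) and 2 lower (RUVBL1 and TENT4B), in all 35.7% of the list against 36.1% of all genes.

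With BB2-125, 6 of the 14 were higher (42.9%, against 13.3% of all genes) and 1 lower (7.1%, against 15%). NHP2 read 10.52, 9.90 and 10.22 with BB2-125, against 9.38, 8.85 and 9.09 in hypoxic vehicle (1.11 ± 0.16, adjusted p = 3.53e-05). The groups did not overlap, and NOP10 (0.63 ± 0.12) and GAR1 (0.43 ± 0.12) were higher too. TENT4B, a poly(A) polymerase of snoRNA tails, was lower (−0.48 ± 0.15). In hypoxia 0 were higher (against 28.2% of all genes) and 11 lower (78.6%, against 29.4%), with a median of −0.54. RUVBL1, an ATPase that takes part in snoRNA particle assembly, read 6.02, 6.02 and 5.98 in hypoxic vehicle, against 8.55, 8.60 and 8.53 in normoxic vehicle (−2.56 ± 0.13, adjusted p = 7.63e-12). The debranching enzyme gene DBR1 changed by −1.24 ± 0.11, or by −0.70 to the filter level, below which its hypoxic mean lay. It passed the filter only on the normoxic vehicle arrays and so had to be lower in hypoxia. It is counted in the 11, and no share was computed without it. PARN, which trims tails of H/ACA RNAs and TERC, changed by −1.03 ± 0.12 and NHP2 by −0.90 ± 0.16. DKC1 was lower as well (−0.48 ± 0.11), so in hypoxia most genes of the list were lower and 32 of the 54 snoRNA genes higher.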

How the data were processed

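The authors deposited 1 linear intensity for each of 28869 probe sets on every array. RMA, which corrects background, normalises between arrays and summarises probes, is named in the submitters' processing notes; which software ran it is not given in the sources used here. The log2 was taken here. No other per-sample column was left out. The arrays of RNA from 15 cultures limit the precision. The highest correlation between arrays was 0.9961 and 0 pairs were identical.

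limma 3.58.1 in R 4.3.3 fitted 5 group means to 15 arrays and 16005 genes, using moderated variances (7.96 prior and 10 residual degrees of freedom). Benjamini-Hochberg adjustment ran over all genes within each of 7 comparisons. The fit was tested on simulated data. Named members were the 5 markers throughout, and those called without overlap: up to 8 each way for hypoxia and for each compound against hypoxic vehicle, and up to 4 each way between compounds. Hosts of these, the 14 proteins, TERC, VEGFA and SLC2A1 were added. Members and lists were chosen with earlier results of these data known, and SNORA60, SNORA62, SNORA55 and the same-host pairs were partly picked after their values were seen.

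A host was the RefSeq gene whose span holds the snoRNA gene. The table gives no strand, so strand was not used, and where several genes span it (SNORA13, SNORA14B, SNORA22, SNORA55, SNORA57, SNORA67, SNORA70D, SNORA71D and SNORA74A) the textbook host, or else the shortest span, was taken, which leaves these hosts uncertain. A single spanning gene was likewise taken without a check of its strand. Some of the other hosts could therefore lie on the opposite strand. Replicate numbers were checked as pairs by the correlation of deviations from group means. Each exceeded 0.1 only for BB2-125 with hypoxic vehicle (0.33, 0.29 and 0.19), so a fit with the number as a block is given there where it changes a call.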

Additional observations from a re-analysis of the deposited data

Results flagged for a closer look

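The 18 SNORA symbols listed only in shared probe sets were outside the comparisons, since each of their 23 probe sets names another gene too. In 8 of the 23 (34.8%) all BB2-282 arrays lay above all hypoxic vehicle arrays, against 12.2% of all 28869 probe sets, and in 2 (8.7%) all lay below, against 14.2%. The largest differences in group means were 2.82 on the log2 scale for the probe set of SNORA1 and TAF1D (10.4 with BB2-282, 7.60 in hypoxic vehicle), 2.23 for that of SNORA64 and RPS2, and 1.20 for that of SNORA56 and DKC1. The signal cannot be assigned to the snoRNA or its host, the probe sets were not tested, and the median difference over the 23 was 0.09. A further 3 shared probe sets name SNORA33 or SNORA60, which have probe sets of their own, and were not used in these counts. The groups overlapped in each, with differences of 0.09 (SNORA33 and RPS12), 0.03 (SNORA33 and SNORD101) and 0.02 (SNORA60 and SNHG11).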

How the results depend on the processing

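The counts of called members in hypoxia (27 to 40), with BB2-282 against hypoxic vehicle (16 to 29), with BB2-125 against BB2-282 (21 to 29) and with BB2-162 against BB2-282 (19 to 25) stayed within 1.5 times the values reported under the alternatives run. Those alternatives were other scalings, filters, probe set rules and variance models, the replicate block, a fit of the 2 groups alone and leaving out each array in turn. For BB2-125 against hypoxic vehicle the count of 4 was 7 in the fit of the 2 groups alone and 3 to 7 with 1 array left out. For BB2-162 against hypoxic vehicle 11 was 7 with median centring, 7 with quantile normalisation and 6 to 19 with 1 array left out. For BB2-125 against BB2-162, where the numbers are only labels, 3 was 1 with the replicate block, 0 with the 2 groups alone and 0 to 19 with 1 array left out. The block gave 5 for BB2-125 against hypoxic vehicle, 4 higher and 1 lower. Of 882 recomputed values of named members 817 kept direction and call, 52 lost the call, 4 gained it and 9, none of them called, changed sign. With 1 array left out, the last were SNORA75 in hypoxia (−0.34 to 0.068, above 0 without normoxic vehicle replicate 2) and SNORA65 with BB2-162 (−0.18 to 0.60, below 0 without BB2-162 replicate 2, and −0.06 without replicate 3). Between BB2-125 and BB2-162 they were SNORA46 (−0.53 to 0.20, above 0 without BB2-125 replicate 2 or 3 or BB2-162 replicate 2), SNORA65 (−0.022 to 0.75, below 0 without BB2-162 replicate 1) and SNORA41 (−0.19 to 0.23, below 0 without replicate 1 of either group). The cause was not tested. The 3 arrays a group limit what small changes can be called.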
